A study of Rattus norvegicus with 14 samples.

Results

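The genes described here are 10 regulators of the hair follicle: the secreted signal Shh, the stem cell receptor Lgr5, the HMG-box factors Lef1 and Sox9, the homeodomain factors Msx2, Hoxc13, Lhx2 and Dlx3, and the forkhead factors Foxn1 and Foxe1. They were chosen by name, as textbook regulators of the follicle, and looked up among 30367 array probes through the accession printed beside each probe. Of the 10 genes, 8 had a matched probe and 6 had a probe bright enough to be tested (Lef1, Msx2, Lhx2, Dlx3, Foxn1 and Foxe1), out of 18625 genes tested in all. Shh and Lgr5 had probes that were not well above background on most arrays, and Hoxc13 and Sox9, with no matched probe, were not analysed here.

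The skin came from male CD hairless rats. One group of 6 animals was exposed to millimetre waves at 94 GHz for 3 hours a day on 3 days a week over 5.5 months. A control group of 8 sham animals, listed with the same schedule, was not exposed to the waves. Each animal gave 1 array. Rats were housed in pairs and the sources used here do not say which animals shared a cage, so the tests treat animals as independent. The numbers given to animals below are names and carry no order.

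The hair follicle is built by signals passing between epidermal cells and a knot of dermal cells below them. Wnt signals act through Lef1 in the cells that form the hair shaft, Shh keeps matrix cells dividing, and Msx2, Dlx3, Hoxc13 and Foxn1 act in the matrix and shaft, where they are needed for hair keratins to be made. Sox9, Lhx2 and Lgr5 mark stem and progenitor cells of the outer root sheath and bulge, and Foxe1 is a Hedgehog-responsive factor needed for normal follicle shape. In whole skin, fewer follicle cells and less RNA per cell cannot be told apart.

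Each level below is the log2 of a probe's processed signal minus the log2 75th percentile of its array, so 0 means as bright as that percentile and a step of 1 is a factor of 2. A probe's level is compared between animals, never with another probe's. The 75th percentile itself ran from 804.5 signal units in sham 6 to 1967 in sham 2, and the lowest but one was exposed 3 at 1075. The arrays lay on 4 slides. Slide 1 held sham 1 and sham 2, slide 2 held exposed 1 and exposed 2, slide 3 held exposed 3 to 5 with sham 3 to 5, and slide 4 held exposed 6 with sham 6 to 8, so slide and group were partly confounded. The epidermal marker Krt1, a keratin of differentiating epidermis, was at 7.40 ± 0.20 in exposed (SD, n = 6) and 7.54 ± 0.23 in sham skin (SD, n = 8), and the basal keratinocyte and bulge marker Krt15 at 6.06 ± 0.14 and 6.14 ± 0.19, so both were bright on every array.

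Stretches before the annotated starts of Lef1, Msx2 and Foxn1 are shown as description only, with no link to their levels tested. They are RefSeq sequence of the rat build GRCr8, read 5′ to 3′ on the gene's strand, from windows that end just before the start given for each gene in the promoter table. The Msx2 window (chr17:11102034-11102283, plus strand) holds 250 bases that lie wholly outside the gene. For Lef1 (chr2:222340463-222340540, plus strand) the 78 bases outside the gene's widest annotated span are printed, and the Foxn1 window (chr10:63771772-63772021, minus strand) lies wholly inside that gene's widest span, upstream of an inner start. Capitals mark the only match to a searched motif.
Lef1: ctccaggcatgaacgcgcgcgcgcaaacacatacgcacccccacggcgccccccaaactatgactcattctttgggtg
Msx2: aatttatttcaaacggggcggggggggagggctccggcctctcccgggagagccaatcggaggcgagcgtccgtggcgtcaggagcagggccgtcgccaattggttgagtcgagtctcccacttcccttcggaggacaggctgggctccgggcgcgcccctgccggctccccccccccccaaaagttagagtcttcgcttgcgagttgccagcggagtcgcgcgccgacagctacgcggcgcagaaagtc
Foxn1: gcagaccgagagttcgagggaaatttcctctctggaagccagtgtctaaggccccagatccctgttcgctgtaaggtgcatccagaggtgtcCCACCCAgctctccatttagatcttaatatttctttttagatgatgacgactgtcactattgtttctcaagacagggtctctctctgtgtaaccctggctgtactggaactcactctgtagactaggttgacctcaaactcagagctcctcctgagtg

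Of the 10 genes, 4 had a window in the promoter table (Lef1, Msx2, Foxn1 and Lhx2). The GC content of the 250 bases was 67.6% for Msx2, 63.2% for Lef1, 80.8% for Lhx2 and 48.8% for Foxn1, against a median of 51.2% over 33469 windows. The Lhx2 window, like that of Foxn1, lies wholly inside the gene's widest span. Of the 250 Lef1 bases, 172 lie inside its span, so these values are not all from sequence outside the genes. The searched words, on both strands, were the TATA box TATAAA, the LEF/TCF core as CTTTGAA or as CTTTGAT, the SOX-type word CTTTGTT, the GLI core CCACCCA and the homeodomain words TAATTG or TAATTA. The 3 words that begin CTTTG share those 5 letters, and the pair of homeodomain words differ in the last letter. Foxn1 alone among the 4 held a match, CCACCCA at 158 bases before the start, and 7.93% of all windows hold that word. The other words are held by 3.15% (CTTTGAT) to 12.9% (TATAAA) of all windows, and none of them is in these 4 windows, which says nothing about the factors.

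No regulator passed the test between exposed and sham skin. In limma with Benjamini-Hochberg adjustment over all genes, 0 of 6 were called, as were 0.0% of the 18625 genes. At an unadjusted p under 0.05 stood 1 of the 6 (Msx2), against 635 genes or 3.41% of all genes. The mean was higher in exposed skin for 5 of the 6, where 43.0% of all genes were higher. The median difference was 0.33 over the 6 regulators and -0.02 over all genes. These counts are small and the 6 genes share their animals, so they describe the arrays and are not a test.

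The Shh probe, for the secreted ligand that drives matrix proliferation, was well above background on 1 array, exposed 6. Its readings lay between -7.58 and -6.48 in the exposed animals, median -6.82, and between -8.40 and -6.82 in sham animals, median -7.78. The groups overlapped, and as the probe was not well above background on any other array, no fold is given. The Hedgehog targets Gli1 and Ptch1, a transcription factor and the Shh receptor that are both induced by the signal, were measured on all arrays. Gli1 was at -1.95 ± 0.74 in exposed skin (SD, n = 6) and -2.11 ± 0.37 in sham skin (SD, n = 8), a difference of 0.16 (SE 0.28). Ptch1 was at -3.50 ± 0.60 and -3.75 ± 0.28, a difference of 0.25 (SE 0.22). Both differences were smaller than the spread between the exposed animals. Over the 13 listed genes of the pathway, 8 were measured. Of these, 5 had the higher mean in exposed animals and 3 in sham animals, with a median difference of 0.04, and none passed the test. The gene with the smallest p was Gli3, which acts mainly as a repressor of Hedgehog targets, at -4.73 ± 0.18 in exposed and -4.37 ± 0.48 in sham skin.

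The Lgr5 receptor, which binds R-spondins and marks cycling follicle stem cells, was well above background on 4 arrays with its better probe (exposed 4, exposed 6, sham 1 and sham 5) and on 1 with the other (exposed 6). Readings of the better probe ran from -7.48 to -5.99 in exposed animals, median -6.34, and from -7.08 to -4.92 in sham animals, median -6.37. The groups overlapped, with the highest reading in sham 5 and the lowest in exposed 3. Krt15, the bulge keratin paired with it here, differed by -0.08 (SE 0.09).

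Lef1, the HMG-box factor through which Wnt signals reach hair keratin genes, was lowest in sham 6. Its level in exposed animals was lowest at -4.31, with a median of -2.96 and a highest value of -2.43. In sham animals it was lowest at -5.71, with a median of -3.90 and a highest value of -2.95. The lowest value, in sham 6, was not well above background, so it is only a bound. Of the 6 exposed animals, 5 lay above the sham median and 3 above every sham animal (exposed 3, 5 and 6), while exposed 1 at -4.31 lay among the low sham animals. The means differed by 0.82 (limma SE 0.41, 95% interval -0.05 to 1.70), a ratio of 1.77, with an unadjusted p of 0.063, an adjusted p of 1.0 and a two-sided exact permutation p of 0.086. Lef1 was also set against its partners in the Wnt pathway. Wnt10b, a ligand made in the follicle, was at -3.10 ± 0.32 in exposed and -3.21 ± 0.19 in sham skin. Axin2, a general target of Wnt signalling, was at -1.78 ± 0.21 and -1.63 ± 0.34.

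Msx2 is a homeodomain factor of the matrix and shaft that acts upstream of Foxn1. In exposed skin it ran from -2.73 through a median of -1.34 to -0.41, and in sham skin from -3.25 through -2.32 to -1.32. Exposed 4, 5 and 6 lay above every sham animal, and exposed 1 lay below all but sham 1 and sham 6. The difference was 0.80 (SE 0.37, 95% interval 0.0037 to 1.60), a ratio of 1.74, with an unadjusted p of 0.049, an adjusted p of 1.0 and an exact permutation p of 0.073. Second probes for both genes gave group differences of like size, though not the same animals above every sham animal. Over the 14 animals the pair of Msx2 probes correlated at r = 0.97, with a difference of 0.77 from the second probe. The pair of Lef1 probes correlated at r = 0.89, with 0.72 from the second, which was well above background on 6 arrays. For that second probe the exact permutation p was 0.14. On it exposed 5 and 6 lay above every sham animal, and exposed 3 lay below sham 2, 3 and 8. On the second Msx2 probe exposed 3, 4 and 6 lay above every sham animal. There exposed 5 at -2.67 lay just below sham 3 at -2.64.

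Lhx2, a LIM homeodomain factor of follicle stem cells and early buds, fell into a high and a low set in exposed skin. Its 6 values there were -1.94, -1.54, -1.63, -0.51, -0.47 and -0.62 in exposed 1 to 6, against a sham range of -1.99 to -0.89 with a median of -1.33. Exposed 4, 5 and 6 stood above every sham animal and exposed 1, 2 and 3 below the sham median. The difference in means was 0.32 (SE 0.26, 95% interval -0.23 to 0.87, exact permutation p = 0.26), less than the spread within the exposed group (SD 0.66).

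Dlx3, a homeodomain factor needed for the hair shaft and inner root sheath, ran from 0.20 to 1.25 in exposed skin, median 0.56, and from -0.10 to 0.61 in sham skin, median 0.31. Exposed 4 and exposed 6 were above all sham animals, and 4 sham animals were below every exposed one. The means differed by 0.34 (SE 0.16, 95% interval -0.01 to 0.68, adjusted p = 1.0, exact permutation p = 0.071). This was about the size of the spread within the groups (SD 0.35 exposed and 0.29 sham).

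Foxn1, the forkhead factor mutated in nude animals and needed for hair keratin expression, had the one lower mean. It ran from -5.38 to -4.47 in exposed skin, median -4.94, and from -5.60 to -4.43 in sham skin, median -4.61. Exposed 6 was the one exposed animal above the sham median, and the lowest value of all was that of sham 6. The difference was -0.14 (SE 0.18, 95% interval -0.54 to 0.25, exact permutation p = 0.47). Foxe1, the other forkhead factor, ran from 1.75 to 2.80 in exposed skin, median 2.32, and from 1.60 to 3.37 in sham skin, median 1.91. Its order was unlike the rest. Sham 6, lowest for Lef1 and Foxn1, was highest for Foxe1, and exposed 6, highest for Lef1, Msx2 and Dlx3, was near its low end at 1.77. The difference was 0.09 (SE 0.27, 95% interval -0.49 to 0.68, exact permutation p = 0.76).

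**Figure D1:**
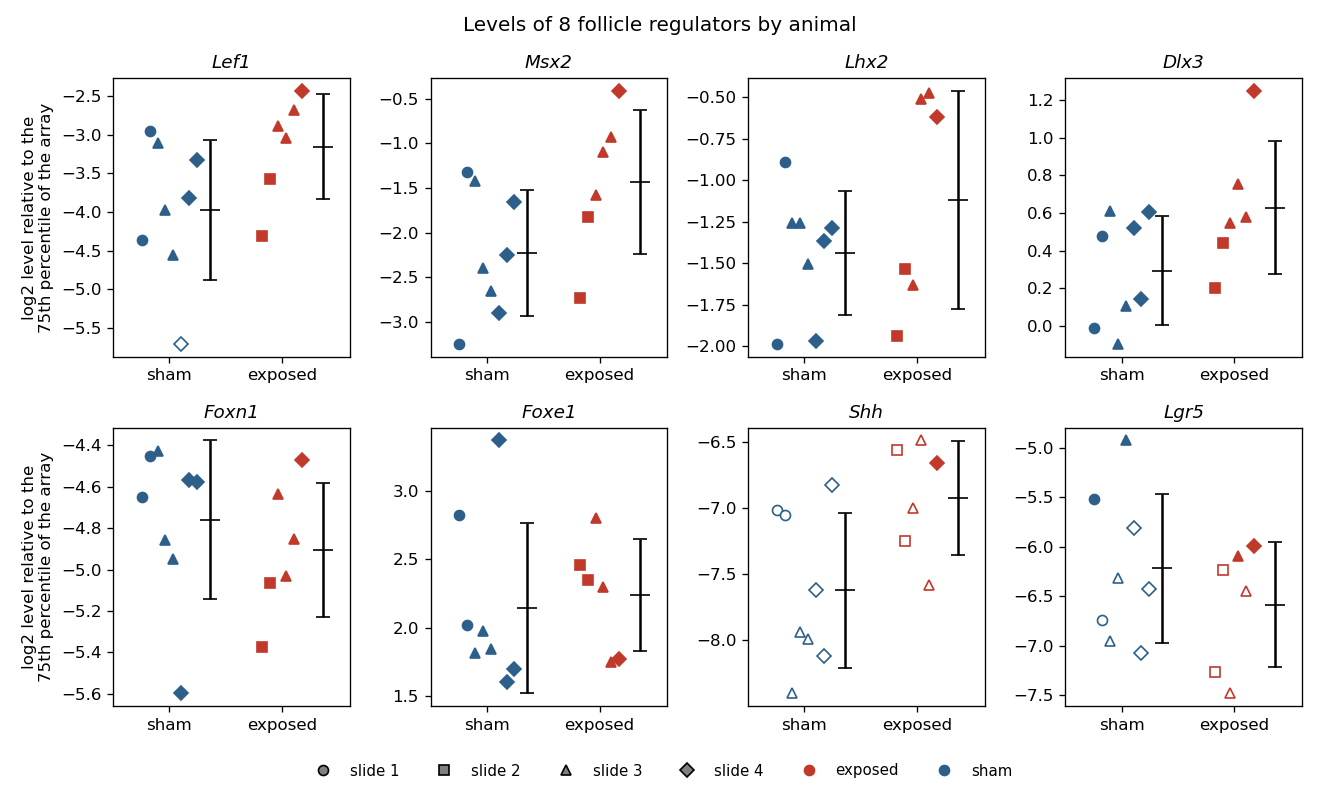
Log2 level relative to the 75th percentile of the array (y axis) of 8 regulators in the 8 sham and 6 exposed animals, 1 point per animal with its slide given by shape, and open points where the probe was not well above background. Bars give the mean and SD of each group, and the groups overlap in every panel.

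How much the regulators varied between animals differed. The SD over the 14 animals was 0.90 for Lef1 and 0.83 for Msx2, larger than that of 97.6% and 97.0% of all genes tested. Without sham 6 it was 0.69 for Lef1 and 0.81 for Msx2, so the order of the pair turned. Foxe1 (0.53) and Lhx2 (0.52) stood at percentiles 90.3 and 89.9. Foxn1 (0.35) and Dlx3 (0.35) were nearer the middle, at percentiles 73.8 and 73.3, and the median gene had an SD of 0.24. From lowest to highest animal, Msx2 spanned a ratio of 7.13, Foxe1 3.42, Lhx2 2.86, Dlx3 2.55 and Foxn1 2.25. Lef1 spanned 4.37 over the 13 arrays where it was well above background. Most of this spread lay within groups: the SD after removing group means was still 0.82 for Lef1 and 0.75 for Msx2.

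Slides bear on these differences, since slide 1 held sham animals alone and slide 2 exposed animals alone. With slide as a block the difference was 1.29 for Lef1, 1.26 for Msx2, 0.62 for Lhx2 and 0.56 for Dlx3, each larger than without it. As slides 1 and 2 cannot compare the groups, the block fit takes its differences from slides 3 and 4 alone. It is thus not independent of the values within those slides. Unadjusted p-values in that limma fit were 0.022, 0.013, 0.052 and 0.0073, and no adjusted p was under 0.05. Within slide 3, with 3 animals a group, Lef1 differed by 1.01 and Msx2 by 0.96. There all exposed animals lay above all sham animals for 1 of the 6 regulators (Lef1), as they did for 2.3% of all genes. The margin for Lef1 was small, with exposed 4 at -3.04 and sham 3 at -3.11. On the second Lef1 probe the groups overlapped on that slide. Within slide 4, where exposed 6 was the one exposed animal, Lef1 and Msx2 both differed by 1.85. With sham 6, where Lef1 was not well above background, left out of that slide, they differed by 1.14 and 1.54, and values from 1 exposed animal do not measure the spread of its group. Exposed 6 stood above all 3 sham animals of its slide for 5 of the 6 regulators (all but Foxe1), as it did for 18.4% of all genes. Foxe1 differed by 0.12 with the block, 0.41 within slide 3 and -0.45 within slide 4. Foxn1 differed by 0.08 with the block, -0.09 within slide 3 and 0.44 within slide 4, so its direction was not stable.

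**Figure D2:**
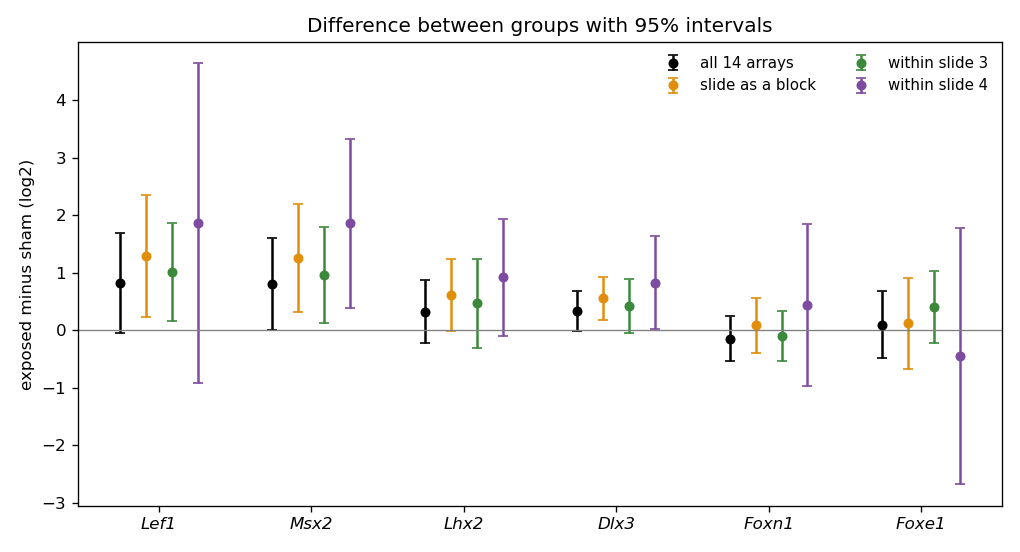
Difference between group means, exposed minus sham, on the log2 scale (y axis) for 6 regulators, with 95% intervals from limma over all 14 arrays, with slide as a block, and within slides 3 and 4. Lef1, Msx2, Lhx2 and Dlx3 are above 0 in all 4 fits, which share animals. The block fit takes its differences from slides 3 and 4 alone, and the fit within slide 4 rests on 1 exposed animal. Foxn1 and Foxe1 change sign between fits, and no difference passed adjustment over all genes.

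Lef1, Msx2, Lhx2 and Dlx3 were positively correlated over animals, though 2 of their 6 pairs missed the threshold (Lef1 with Dlx3 at r = 0.59, rho 0.71, adjusted permutation p 0.059 and 0.024, and Lhx2 with Dlx3 at r = 0.58, rho 0.52, adjusted permutation p 0.059 and 0.13). Foxe1 had a negative r with each of the other 5. Over the 14 animals, 58 relations were computed in 1 family, each with a two-sided permutation test of 100000 resamples and Benjamini-Hochberg adjustment, and 22 had an adjusted p under 0.05. Among the 15 pairs of regulators 6 passed. Lef1 and Msx2 correlated at r = 0.90 (Spearman rho 0.95, adjusted permutation p 0.00039 and 0.00058). Msx2 correlated with Lhx2 at r = 0.87 (rho 0.86, adjusted permutation p 0.00073 and 0.0019) and with Dlx3 at r = 0.82 (rho 0.78, adjusted permutation p 0.0017 and 0.0087). Without the 2 animals farthest from the median, these 3 values were 0.92, 0.86 and 0.80, and within slide 3 they were 0.95, 0.71 and 0.90 over 6 animals. Lef1 and Lhx2 correlated at r = 0.77 (rho 0.71, adjusted permutation p 0.0055 and 0.021), 0.50 within slide 3.

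The remaining pairs that passed were weaker once animals were left out. Lef1 and Foxn1 correlated at r = 0.70 (adjusted permutation p 0.022; rho 0.57, adjusted permutation p 0.092). That value was 0.48 without sham 6, 0.34 without the 2 farthest animals and 0.07 after normexp background correction. It was 0.76 after quantile scaling and 0.92 after subtracting group means, and passed in both (adjusted permutation p 0.0072 and 0.00052). Lhx2 and Foxe1 correlated at r = -0.62 (rho -0.64, adjusted permutation p 0.044 and 0.041), with -0.40 without the 2 farthest animals and -0.54 without sham 6, neither of which passed. After subtracting group means it was -0.69 and passed (adjusted permutation p 0.013), and after quantile scaling it was -0.57 and did not (adjusted permutation p 0.068).

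Inner root sheath genes correlated with 4 of the 6 regulators. This sheath is the inner layer that moulds the growing shaft in a growing follicle, and its score here is the mean over 10 measured genes after each was centred. The score lay between -1.13 and 1.5 in exposed animals and between -1.33 and 0.96 in sham animals. Msx2 correlated with it at r = 0.96 (rho 0.94, adjusted permutation p 0.00029 and 0.00058), Lef1 at 0.89 (rho 0.86, 0.00029 and 0.0019), Lhx2 at 0.85 (rho 0.82, 0.00087 and 0.0046) and Dlx3 at 0.78 (rho 0.79, 0.0038 and 0.0070). After subtracting group means these were 0.97, 0.88, 0.83 and 0.74, so they were nearly as high among animals of the same group. Without the 2 farthest animals they were 0.95, 0.87, 0.79 and 0.65, of which the last had an adjusted p of 0.071. Within slide 3 they were 0.93, 0.86, 0.68 and 0.86. Foxn1 gave r = 0.56 (rho 0.55, adjusted permutation p 0.069 and 0.094) and Foxe1 r = -0.51 (rho -0.46, adjusted permutation p 0.11 and 0.18), and neither passed. Foxn1 did pass after subtracting group means (0.69) and after quantile scaling (0.66), with adjusted permutation p 0.015 and 0.025, but was at -0.13 after normexp.

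**Figure D3:**
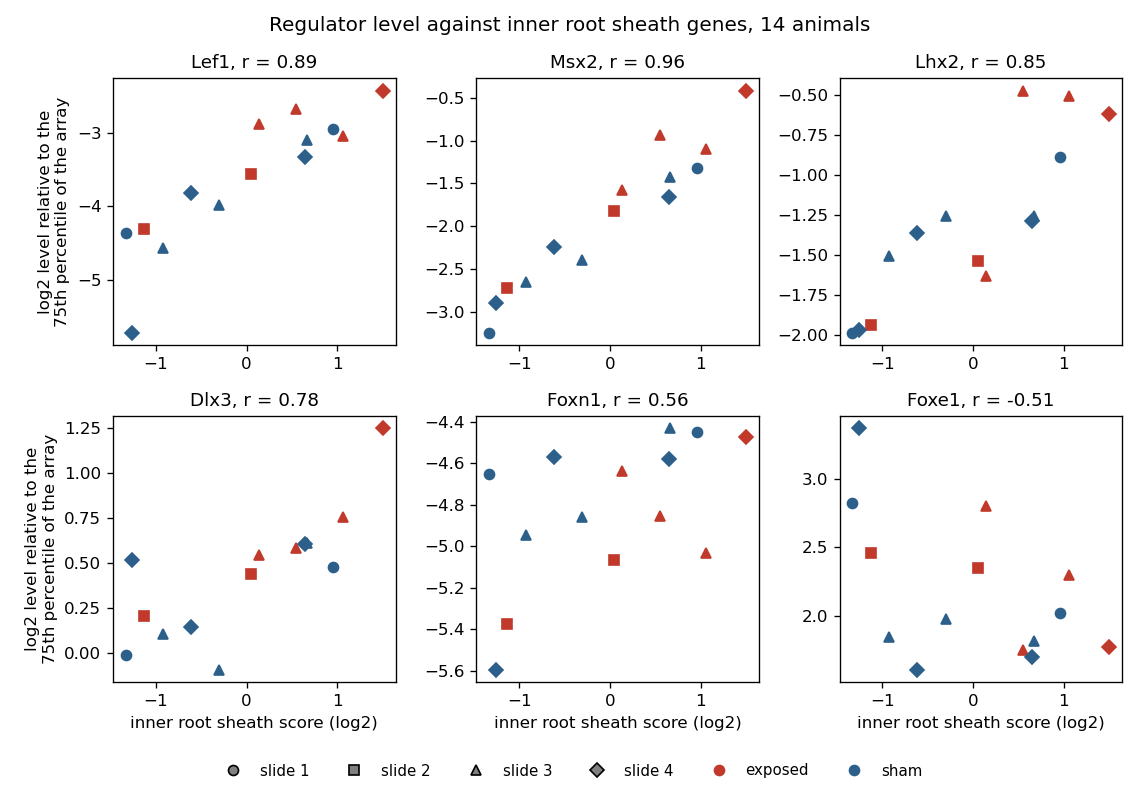
Log2 level relative to the 75th percentile of the array of 6 regulators (y axis) against the inner root sheath score (x axis, log2), 1 point per animal, coloured by group and shaped by slide. Msx2 lies closest to a line at r = 0.96, exposed and sham animals are mixed along it, and Foxe1 slopes the other way at r = -0.51.

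Hair shaft keratins, the structural proteins of the hair itself, gave a score over 11 genes that ran from -1.5 to 1.93 in exposed and from -1.77 to 1.74 in sham animals. Msx2 correlated with it at r = 0.86 (rho 0.87, adjusted permutation p 0.00087 and 0.0019), Lef1 at 0.81 (rho 0.87, 0.0017 and 0.0019), Dlx3 at 0.75 (rho 0.74, 0.0055 and 0.015) and Foxn1 at 0.62 (rho 0.64, 0.044 and 0.041). Without the 2 farthest animals the 4 values were 0.82, 0.77, 0.73 and 0.50, and within slide 3 they were 0.67, 0.82, 0.74 and 0.72. Foxn1 lost its call without the 2 animals (adjusted p 0.21), without sham 6 (r = 0.62, adjusted p 0.069) and after normexp (r = 0.34, adjusted p 0.42). For Lhx2 the value was 0.61 (rho 0.63, adjusted permutation p 0.053 and 0.051), and within slide 3 it was -0.04. Lhx2 therefore passed with the inner root sheath score and missed with the keratin score, and the difference between those correlations was not tested. Foxe1 gave -0.31 (rho -0.34).

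Of the fixed pairs with textbook targets, 7 could be measured and 4 passed. Foxn1, whose loss stops hair keratin expression in nude animals, correlated with the shaft keratins Krt31 at r = 0.70 (rho 0.78), Krt35 at r = 0.69 (rho 0.64) and Krt85 at r = 0.63 (rho 0.65), with adjusted permutation p-values of 0.022, 0.024 and 0.044 for r and 0.0087, 0.041 and 0.041 for rho. Without the 2 farthest animals the 3 values were 0.70, 0.64 and 0.57, of which Krt35 and Krt85 no longer passed (adjusted p 0.072 and 0.13). Without sham 6 they were 0.73, 0.45 and 0.65 (adjusted p 0.019, 0.25 and 0.053). After normexp background correction they were 0.42, -0.02 and 0.29, and none passed. Lef1 correlated with Wnt10b at r = 0.64 (adjusted permutation p 0.042; rho 0.45, adjusted permutation p 0.21), 0.46 without the 2 farthest animals, 0.48 without sham 6 and 0.21 within slide 3, none of which passed. It gave r = 0.09 with Axin2 (rho -0.09), -0.14 with Wnt10a (rho -0.13) and -0.06 with the T cell receptor gene Cd3e (rho -0.06), the last of these included because T cells also express Lef1.

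Array signal moved with several of these levels. As the log2 75th percentile is subtracted from every level, the measures share it, and these values are given as description. Foxe1 fell as signal rose, at r = -0.88 (rho -0.80, adjusted permutation p 0.0012 and 0.0070), -0.68 without the 2 farthest animals and -0.90 within slide 3. Foxn1 gave 0.70 (rho 0.68, adjusted permutation p 0.022 and 0.035), Lhx2 0.70 (rho 0.75, 0.018 and 0.013), Lef1 0.69 (rho 0.60, 0.024 and 0.069), Msx2 0.59 (rho 0.70, 0.053 and 0.026) and Dlx3 0.26 (rho 0.38, 0.57 and 0.30). Within slide 3 the values for Foxn1 and Lef1 were -0.23 and -0.11, and without sham 6 they were 0.46 and 0.40 and did not pass. The part of array signal in the relations above was not tested.

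Scores of skeletal muscle, T cell and cell cycle genes did not pass with any of the 6. Skeletal muscle markers were higher in exposed skin for 17 of 17 measured genes of 22 listed, where 43.0% of all genes were higher. These genes share their animals, so the count is not a test. Their score lay between -1.59 and 4.24 in exposed and between -2.23 and 3.01 in sham animals, and of these genes Myl1 was not well above background on 5 arrays. The correlations of the 6 regulators with that score lay between -0.16 and -0.04. For the T cell score, over 11 of 12 listed markers with a range of -0.48 to 0.28 in exposed and -0.30 to 0.34 in sham animals, they lay between -0.27 and 0.20. For the score of 17 cell cycle genes, in which sham 6 stood apart from the rest, they were taken over the other 13 animals and lay between -0.42 and 0.12. Scores of 5 further cell types were added after these results had been seen, as 30 relations adjusted among themselves, and 1 passed. Lef1 correlated with the adipocyte score at r = 0.78 (adjusted permutation p 0.038; rho 0.72, adjusted permutation p 0.098). That value was 0.58 without sham 6, 0.48 without the 2 farthest animals and 0.59 within slide 3, none of which passed. The adipocyte score, over 8 of 11 listed markers, ran from -0.44 to 0.56 in exposed and from -0.96 to 0.24 in sham animals. Its part in the values of Lef1 was not tested. Correlations lay between -0.52 and 0.15 with the epidermal score, -0.30 and 0.09 with the sebaceous, -0.41 and 0.11 with the melanocyte and -0.21 and 0.58 with the cartilage score. Some depended on the processing. Foxe1 with the epidermal score went from -0.17 to -0.80 after quantile scaling (adjusted permutation p 0.0093). It was also -0.80 with the authors' deposited values (adjusted permutation p 0.0101). Those values nearly match the quantile-scaled ones for the regulators they hold, so this is not a separate result. The cartilage score passed after quantile scaling with Msx2 (0.70), Lhx2 (0.69) and Dlx3 (0.74), but not after normexp (-0.0472, -0.145 and 0.243). Lef1 and Foxn1 with the adipocyte score (0.826 and 0.765) also passed after quantile scaling.

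**Figure D4:**
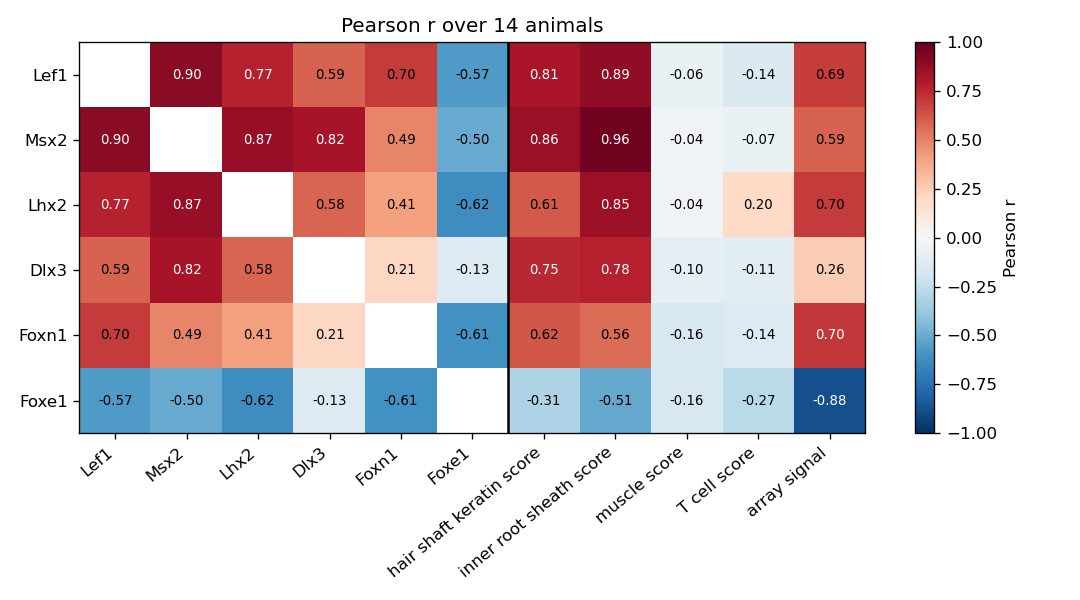
Pearson r over 14 animals between the 6 tested regulators (rows) and the same regulators, 4 marker scores and the 75th percentile signal of the array (columns), with the value in each cell. Lef1, Msx2, Lhx2 and Dlx3 stand at 0.78 to 0.96 in the inner root sheath column and at 0.58 to 0.90 with each other, Foxe1 is negative in each column other than its own, which is blank, and the muscle and T cell columns lie between -0.27 and 0.20.

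The genes most like each regulator over the 14 animals were looked up among 11315 named genes, with Pearson r as the measure. Each neighbour is picked for its high r among that many genes, so these values are not a test. For Lef1 they were the shaft keratin Krt35 (r = 0.96) and the cadherin Cdh6 (0.95). For Msx2 they were the inner root sheath keratins Krt28 (0.97) and Krt73 (0.96). Lhx2 was most like Bnc2, a zinc-finger protein (0.96), and Mycn, a MYC family factor (0.95). Dlx3 was most like the potassium channel subunit Kcne1 (0.91) and the endocytic protein Fcho2 (0.89), and Foxn1 most like Frmd8 (0.90) and Dlgap4 (0.88). Foxe1 was most like Ly6g5c (0.97) and Clrn2 (0.96). It also had the most close neighbours, 72 genes at r above 0.9 against 21 for Msx2, 9 for Lef1, 5 for Lhx2 and 1 each for Foxn1 and Dlx3. Foxe1 itself fell with array signal (r = -0.88) and was highest in sham 6, the array of lowest signal. The part of array signal in these neighbours was not tested. Over 21 shaft and sheath genes the median r was 0.79 for Msx2, 0.76 for Lef1, 0.66 for Dlx3, 0.59 for Lhx2, 0.48 for Foxn1 and -0.34 for Foxe1. The lowest r among these genes was -0.48 for Msx2, -0.22 for Lef1, -0.45 for Dlx3 and -0.56 for Lhx2. The lowest was 0.10 for Foxn1, and the values for Foxe1 ran from -0.615 to 0.13.

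The wider lists of follicle genes place the regulators, and none of these lists held a gene that passed the adjusted test. Among 15 hair shaft keratins, 11 were measured and all 11 were higher in exposed skin, where 43.0% of all genes were, with a median difference of 0.56. The genes of a list share their animals, so such counts describe the arrays and are not a test. Krt40 was at -3.17 ± 1.93 in exposed and -4.55 ± 1.17 in sham skin, and Krt35 at -1.46 ± 0.97 and -2.79 ± 1.90 (SD, n = 6 and 8). Of 14 inner root sheath genes, 10 were measured, 9 were higher and 1 lower, with a median of 0.74; Krt73 was at -1.17 ± 1.08 and -2.21 ± 1.09. Each of these 3 differences was smaller than the larger SD of its groups. All 6 measured of 16 epidermal markers were lower, by a median of -0.06.

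The signalling lists were near the all-gene median. The Wnt list had 19 of 35 measured, 10 higher and 9 lower, median 0.00. The antagonist Dkk3 was at 1.41 ± 0.18 in exposed and 1.62 ± 0.13 in sham skin (unadjusted p 0.032). The BMP list had 19 of 19 measured, 10 higher and 9 lower, median 0.04. In it the activin and BMP antagonist Fst was at 1.04 ± 0.23 and 1.41 ± 0.19 (unadjusted p 0.0054, adjusted p 1.0), and the pseudoreceptor Bambi at 0.05 ± 0.81 and -0.61 ± 0.68. The Notch list had 11 of 14 measured, 4 higher and 7 lower, median -0.11, with the ligand Dll1 at -3.03 ± 0.18 and -2.70 ± 0.14 (unadjusted p 0.0028, adjusted p 1.0). The FGF and ectodysplasin list had 13 of 19 measured, 6 higher and 7 lower, median -0.05.

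Among 36 other transcription factors of the follicle, 23 were measured, 9 higher and 14 lower, median -0.02. Msx1, the paralogue of Msx2, was at -2.99 ± 0.60 in exposed and -3.63 ± 0.66 in sham skin, a difference of 0.64 (SE 0.31) where Msx2 differed by 0.80. Foxq1, a forkhead factor of the hair medulla, was at -0.75 ± 0.16 and -0.52 ± 0.18 (unadjusted p 0.026). Of 14 bulge and outer root sheath markers 9 were measured, 5 higher and 4 lower, with a median of 0.09, and of 13 dermal papilla markers 10 were measured, 5 higher and 5 lower, with a median of 0.03.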

How the data were processed

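Skin RNA of 14 male rats (6 exposed, 8 sham) was labelled with Cy3 and hybridised to 1-colour Agilent arrays, 1 per animal. The deposited scanner files hold intensity values on a linear scale, background-subtracted per the file headers by Agilent Feature Extraction 10.7.3.1 and not scaled between arrays. A further table deposited by the authors gives 15168 probes on the log2 scale with each probe centred across animals. Its normalization is not stated in those sources, and it served as an alternative only. Its group differences matched those after quantile scaling for Msx2 (0.802), Lhx2 (0.321), Dlx3 (0.354) and Foxe1 (0.124), so these alternatives are not independent. Of 62976 spots per array, 4259 were controls and left out, as were 398 to 601 outlier spots per array.

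Signals were scaled to the 75th percentile of each array, taken as log2 and averaged per probe. Of 30367 probes, 21030 were well above background on at least 6 arrays and were kept; the brightest kept probe stood for its gene. Probes were named through rat RefSeq by accession without version: 17998 (59.3%) matched. The comparison of groups used limma 3.58.1 (R 4.3.3) with Benjamini-Hochberg adjustment over 18625 genes, and regulators also with an exact permutation test over 3003 splits. The fit was also run on simulated arrays with independent genes and no slide effects, which does not test it on this design. Scores are means over the measured genes of a list after centring each gene. The number of arrays limits the precision. The genes named are the 10 regulators, the 2 genes of each list with the smallest p, the 2 closest neighbours of each regulator and the fixed pairs. The regulators and lists were chosen with earlier results of these data known. Alternatives were normexp background correction (with an offset of 50 signal units), quantile scaling, other filters, slide as a block or alone, the authors' values and leaving out animals. Scores of 5 further cell types and slide 4 without sham 6 were added after the results had been seen.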

Additional observations from a re-analysis of the deposited data

Results flagged for a closer look

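Foxn1 in sham 6 was the lowest of the 8 sham animals at -5.60, with the nearest of the others at -4.95. That gap was 0.557 of the whole range of the group, above Dixon's critical value at the 95% level for 8 samples. In all, 16 sets of values (8 per group) were examined this way, and chance alone marks about 1 in 20 such sets. Sham 6 was also the array of lowest signal, with a 75th percentile of 804.5 units.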

How the results depend on the processing

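No paired analysis was possible because the labels give no replicate numbers: animals were numbered in accession order only. Over the alternatives, 142 values of the 6 group differences kept their direction and side of the threshold and 5 changed sign. Those were Foxe1 within slide 4 (-0.45) and on leaving out single animals (range -0.0186 to 0.270, below 0 without exposed 3), and Foxn1 with slide as a block (0.0844) and within slide 4 (0.44, and 0.10 there with sham 6 left out). On leaving out animals the difference ran from 0.58 to 1.06 for Lef1, 0.60 to 1.06 for Msx2, 0.21 to 0.42 for Dlx3, 0.19 to 0.49 for Lhx2 and -0.27 to -0.05 for Foxn1. After normexp it was 0.48 for Lef1 and 0.67 for Msx2. Normexp here added an offset of 50 units to each signal, where the 75th percentile ran from 804.5 to 1967. Such an offset shifts the levels of dim probes most, and its part in the normexp values was not tested.

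Of the 12 relations with scores and signal that passed, 9 passed after normexp, 9 without the 2 farthest animals, 9 without sham 6 (a choice made after seeing the data) and 0 within slide 3 (6 animals). Of the 10 among regulators and targets that passed, 4 passed after normexp, 5 without the 2 farthest animals, 5 without sham 6 and 0 within slide 3; after normexp a further relation passed, so 5 did in all. Of those 12 and 10 relations, 12 and 9 passed after quantile scaling, and 12 and 10 after subtracting group means. The authors' values, which hold neither Lef1 nor Foxn1, gave 7 and 3 relations that passed, of which 7 and 2 had passed before. Over all 58 relations, passed or not, 12 changed sign after normexp, 12 within slide 3 and 15 without the 2 farthest animals, and 3 of the 22 that had passed did so under normexp or within slide 3 (Foxn1 with array signal in both, Foxn1 with Krt35, Lef1 with array signal). Among the relations the text describes singly, signs changed after normexp for Foxn1 with the inner root sheath score (-0.13), array signal (-0.54), Msx2 (-0.17) and Krt35 (-0.0243) and for Lef1 with Axin2 (-0.22). Of the other pairs with Foxn1, that with Foxe1 went from -0.61 to 0.56 and that with Lhx2 from 0.41 to -0.44. Within slide 3, signs changed for array signal with Lef1 (-0.11) and Foxn1 (-0.23), for the keratin score with Lhx2 (-0.0378) and Foxe1 (0.52), and for the inner root sheath score with Foxe1 (0.15). There Foxe1 also gave 0.32 with Lef1, 0.14 with Msx2, 0.06 with Foxn1 and 0.28 with Dlx3, and Foxn1 gave -0.45 with Lhx2, all of opposite sign to the values over 14 animals. Without the 2 farthest animals, signs changed for Lef1 with Axin2 (-0.26), Wnt10a (0.11) and Cd3e (0.0743), and after quantile scaling for Lef1 with Wnt10a (0.0346) and Cd3e (0.0267). Without sham 6, Lef1 gave -0.30 with Axin2. Lef1 could not be given where a probe had to be well above background on all 14 arrays.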
